A study of Rattus norvegicus with 2 samples.

Results

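Nr4a1 and the immediate-early genes Fos, Fosb, Jun, Junb, Jund, Egr1, Atf3 and Btg2 were examined in cultured optic nerve cells of WT and Nuc1 rats. The group was named as 10 genes, of which 9 had a row of their symbol among the 25399 genes listed. The symbol of the other gene, Ier2, was not among those rows, so Ier2 has no value here. The group was selected on summed UMIs relative to all UMIs in earlier results of these data, where most of its genes, though not Jund, were lower in the Nuc1 library, so that the lower values in all kept cells are a description and not a finding. The questions asked of them were whether the lower values held in each group of cells and whether the genes moved together from cell to cell.

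Immediate-early genes are transcribed within minutes of a stimulus such as a growth factor, calcium entry or stress, from factors already present in the cell and without new protein synthesis. Most of them encode transcription factors, their mRNAs are short-lived, and their products set the later response of the cell. In glia they are used as a readout of recent stimulation, and they are also known to respond to the dissociation of tissue into single cells.

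The study compared 1 library of WT cells with 1 library of cells from Nuc1 rats, which carry a spontaneous insertion in Cryba1, the gene of βA3/A1-crystallin. Both were mixed primary cultures of glia from the optic nerve, labelled as postnatal day 7, and sequenced from the 3′ end of transcripts in droplets. The labels give no sex and no number of animals, and the methods give no time between culture, dissociation and loading for either library. Viability was given as 90% for WT and 95% for Nuc1, with inputs of 5092 and 5125 cells. With 1 library per genotype, genotype, animal, culture and handling cannot be told apart, no test was made, and each interval below is an exact 95% interval that covers counting error only.

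The deposited counts are of unique molecular identifiers (UMIs), each standing for a transcript molecule that was captured, and came to 34517542 for WT and 35794685 for Nuc1. Filters kept 1961 WT cells, whose median was 14050 UMIs, and 1780 Nuc1 cells, whose median was 16567.5, and the libraries shared 2 cell barcodes. Cryba1 was counted at 0 UMIs in all barcodes, which allows up to 0.0887 CPM (UMIs per 1000000 UMIs) in the kept WT cells and 0.0866 in the kept Nuc1 cells, so the genotype labels could not be checked from it. The Y-linked gene Eif2s3y had 3 UMIs among the WT cells against 896 among the Nuc1 cells, and Kdm5d 0 against 204, while none of 4 erythroid genes measured reached 100 UMIs.

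The cells fell into 10 clusters, found without the genes described here and without the lists of other primary response genes and of heat shock genes. Cluster 3 was astrocyte-like, with Gfap, Hspb1, Fabp7 and Aqp4 among its 10 leading genes, and held 106 WT and 347 Nuc1 cells. Cluster 5 held dividing cells led by Ube2c and Top2a (146 WT and 77 Nuc1 cells), cluster 6 was ciliated-cell-like (15 and 106), and cluster 9 was macrophage-like (27 and 24). Clusters 0 (led by Igfbp5 and Ccn3, 666 WT and 379 Nuc1 cells), 1 (Actg2 and Penk, 574 and 223), 2 (Cldn11 and Thbd, 301 and 215), 4 (Inmt and Cyp26b1, 53 and 367) and 8 (Ttr and Gldn, 23 and 32) were left without a name, and cluster 7 (50 and 10) is given by its number only. Clusters 0 to 5 had at least 30 cells in each library.

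The start regions of the genes are shown because the stimuli that act on immediate-early genes do so through short sites there. RefSeq promoter windows on the GRCr8 assembly, from 250 bases before to 50 bases after the start, were at hand for Fosb, Junb, Jund, Egr1, Nr4a1, Btg2 and Ier2, and those of Fos, Jun and Atf3 were not used here. The windows of Nr4a1 (chr7:134259888-134260187, plus strand), Btg2 (chr13:48087641-48087940, minus strand) and Junb (chr19:40080876-40081175, plus strand), genes with lower values in the Nuc1 library, stand beside that of Jund (chr16:18769722-18770021, minus strand), whose value was not lower. Each is written 5′ to 3′ along the gene, and capitals mark matches on either strand to the CRE TGACGTCA, its core TGACG, the EGR site GCGGGGGCG, its shorter form GCGGGGG, the ETS core CCGGAA or the TATA box TATAAA.
Nr4a1: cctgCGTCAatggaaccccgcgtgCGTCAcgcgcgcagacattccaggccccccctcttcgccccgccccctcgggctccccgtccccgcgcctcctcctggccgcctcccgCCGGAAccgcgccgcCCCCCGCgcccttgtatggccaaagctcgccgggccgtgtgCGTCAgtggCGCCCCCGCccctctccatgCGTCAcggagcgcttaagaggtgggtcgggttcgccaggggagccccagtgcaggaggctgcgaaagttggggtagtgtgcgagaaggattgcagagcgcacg
Btg2: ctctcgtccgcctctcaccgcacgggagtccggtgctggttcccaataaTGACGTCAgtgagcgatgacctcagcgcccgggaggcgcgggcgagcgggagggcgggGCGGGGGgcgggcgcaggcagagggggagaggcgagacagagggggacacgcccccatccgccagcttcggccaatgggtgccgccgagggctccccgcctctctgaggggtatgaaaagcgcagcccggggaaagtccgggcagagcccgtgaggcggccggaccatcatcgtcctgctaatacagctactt
Junb: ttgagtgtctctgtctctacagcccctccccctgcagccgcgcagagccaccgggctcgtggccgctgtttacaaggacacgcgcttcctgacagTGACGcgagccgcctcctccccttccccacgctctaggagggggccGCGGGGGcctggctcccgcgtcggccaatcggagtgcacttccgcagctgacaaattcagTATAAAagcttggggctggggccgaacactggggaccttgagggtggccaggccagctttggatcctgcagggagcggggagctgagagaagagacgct
Jund: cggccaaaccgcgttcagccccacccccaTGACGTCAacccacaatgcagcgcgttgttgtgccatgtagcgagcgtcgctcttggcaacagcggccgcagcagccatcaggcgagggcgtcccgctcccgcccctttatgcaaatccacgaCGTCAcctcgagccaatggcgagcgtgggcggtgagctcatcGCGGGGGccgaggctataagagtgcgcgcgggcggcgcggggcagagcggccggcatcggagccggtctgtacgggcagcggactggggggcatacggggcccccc

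The Nr4a1 window held 4 matches to the CRE core and the EGR site GCGGGGGCG, which overlaps 1 of its 2 matches to GCGGGGG, and the EGR site occurred in 2.73% of the 33469 windows of the table. The full CRE TGACGTCA, which contains the core on both strands, was found in the windows of Btg2, Jund and Ier2, and in 1.83% of all windows. The CRE core TGACG was found in 6 of the 7 windows, all but that of Fosb, and in 21.2% of all windows. Egr1 alone of the 7 held the CArG box, the site of serum response factor, written as CC, 6 bases of A or T, and GG, with 2 matches from 105 to 96 and from 83 to 74 bases before the start, and 1.64% of all windows held it. Matches to the TATA box sequence TATAAA were found in Fosb and Junb (14.2% of all windows, on either strand). That of Junb lay at −49 to −44 from the start, and that of Fosb at −180 to −175 on the strand opposite to the gene. The AP-1 site TGANTCA, found in 7.33% of all windows, was in none of the 7. Jund and Btg2 both held a full CRE and GCGGGGG, and Jund held a further CRE core apart from its full CRE.

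In all kept cells, 8 of the 9 genes had a lower level in the Nuc1 library, where 50.6% of the 11290 genes with at least 100 UMIs over both libraries were lower. The level of 5 of the 9, Fosb, Egr1, Nr4a1, Atf3 and Btg2, was at least 2-fold lower, which held for 4.56% of all genes. These counts follow from the choice of the genes and nothing was read from them. The median log2 ratio of Nuc1 over WT was −1.16 over the 9 genes and −0.01 over all genes.

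Nr4a1 (ENSRNOG00000007607) encodes an orphan nuclear receptor, also called Nur77, which acts as a transcription factor without a known natural ligand. Its level was 398.6 CPM in WT (interval 391.9 to 405.4) against 56.0 in Nuc1 cells (53.5 to 58.5), giving a log2 ratio of −2.83 (−2.90 to −2.76) or a level 7.12-fold higher in WT. It had the lowest ratio of the 9 genes.

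Nr4a1 was lower in the Nuc1 library in all 10 clusters, and only the interval in the macrophage-like cells, with 20 WT and 3 Nuc1 UMIs, included a log2 ratio of 0. The lowest ratio was in the dividing cells of cluster 5, with 349.6 CPM in WT and 43.1 CPM in Nuc1 cells, the log2 ratio being −3.02 (−3.32 to −2.73). In the astrocyte-like cells its level was 115.8 CPM in WT and 22.2 CPM in Nuc1 cells, and the log2 ratio was −2.39 (−2.65 to −2.12). The mean log2 ratio over clusters 0 to 5 was −2.56, with a range of −3.02 to −2.20, so that in each of these clusters the difference was over 4-fold.

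In the WT library Nr4a1 stood highest in cluster 0 (518.4 CPM), followed by clusters 2 (480.7), 1 (407.1), 5 (349.6), 4 (274.0) and 8 (213.3), and each of these differed from the next beyond counting error. The lower part of the order ran from cluster 7 (133.0 CPM) through the astrocyte-like (115.8) and macrophage-like cells (82.5) to the ciliated-cell-like cells (66.8), and neighbours there did not differ beyond counting error. In the Nuc1 library the levels of Nr4a1 lay between 22.2 CPM in the astrocyte-like cells and 94.2 in cluster 8. Of the clusters there, only the step from cluster 1 (88.7) to cluster 2 (63.4) passed counting error between neighbours. The order of the clusters thus differed between the libraries, and every Nuc1 level except those of clusters 0, 1 and 8 was below the lowest WT level.

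Other clusters gave smaller differences of Nr4a1. In cluster 8 its level was 213.3 CPM in WT and 94.2 CPM in Nuc1 cells, which is a log2 ratio of −1.18 (−1.66 to −0.71), and in the ciliated-cell-like cells, from 28 and 58 UMIs, the log2 ratio was −1.39 (−2.06 to −0.68). The intervals of both clusters lay above those of clusters 2 and 5.

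**Figure D1:**
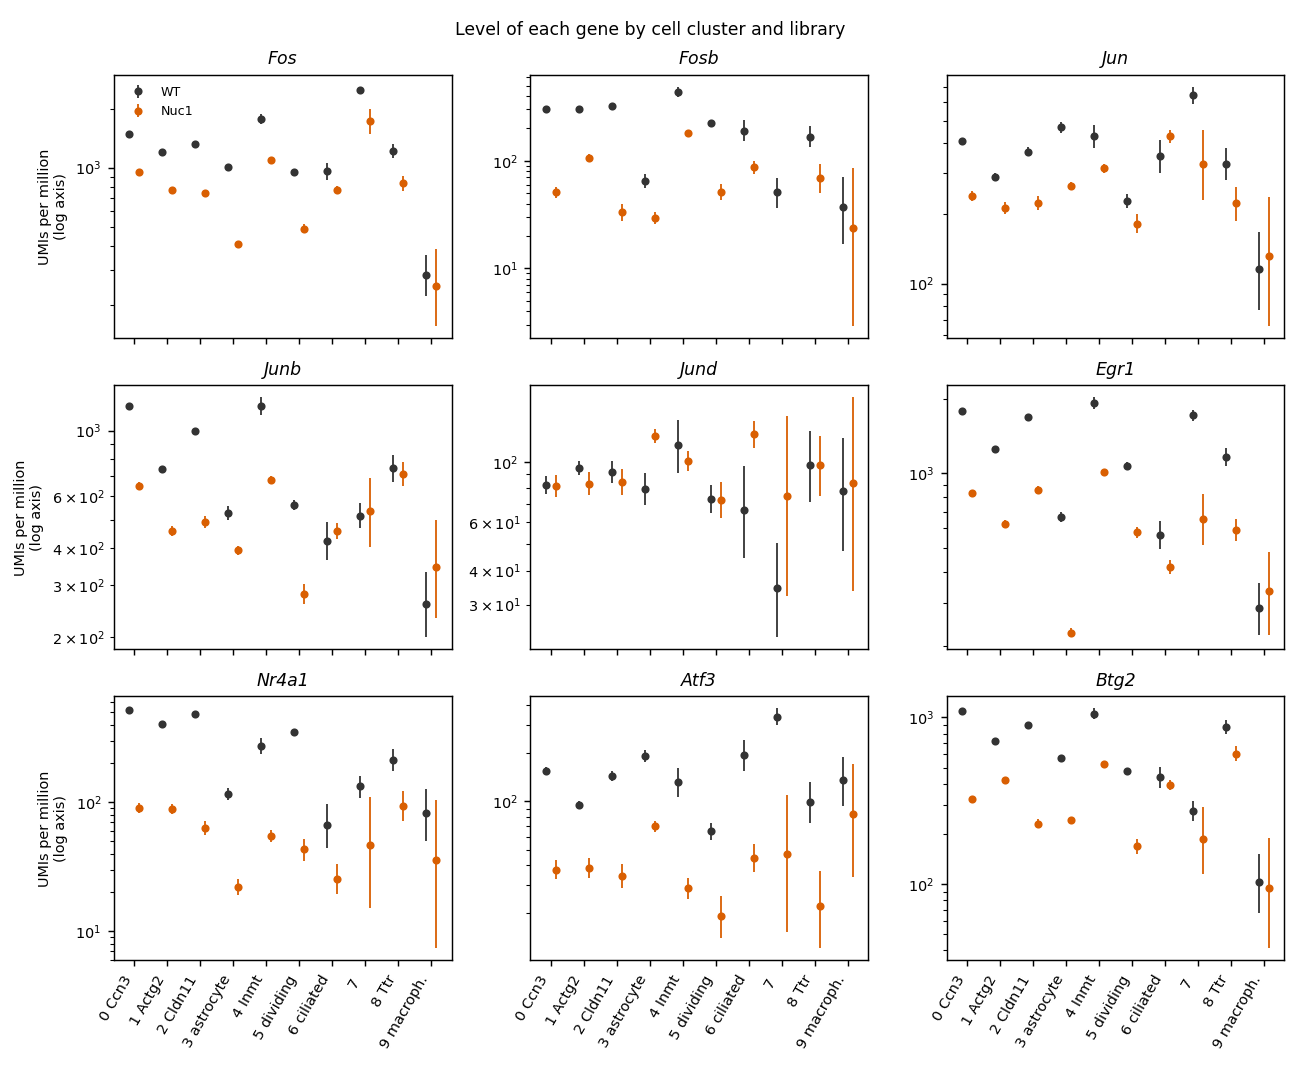
CPM (UMIs per 1000000) of each gene (log axis) in the 10 clusters, WT in black and Nuc1 in orange, with exact 95% intervals for counting error; the Nuc1 library had 0 UMIs of Fosb in cluster 7, so no point is drawn there. Nr4a1 is lower in the Nuc1 library in all 10 clusters, while Jund overlaps in most of them.

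The Fos proteins pair with Jun proteins to form AP-1, a dimeric transcription factor. Fos (ENSRNOG00000008015) had 1279 CPM in WT against 739.9 in Nuc1 cells, which is a log2 ratio of −0.79 (−0.81 to −0.77). It was lower in the Nuc1 library in all 10 clusters, and in 9 of them beyond counting error, the exception being the macrophage-like cells. The difference was largest in the astrocyte-like cells, where Fos stood at 1011 CPM in WT and 405.9 CPM in Nuc1 cells (log2 ratio −1.32, −1.39 to −1.25), and smallest among the other clusters in the ciliated-cell-like cells (958.4 and 767.9 CPM, −0.32). In both libraries Fos was highest in cluster 7, followed by clusters 4 and 0, and lowest in the macrophage-like cells.

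Fosb (ENSRNOG00000046667), the relative of Fos whose spliced short form is known for its long life in neurons, had 269.0 CPM in WT against 75.6 in Nuc1 cells (log2 ratio −1.83, −1.89 to −1.77). Over clusters 0 to 5 its log2 ratio had the widest range of the 9 genes. In cluster 2 its level was 323.6 CPM in WT and 33.4 CPM in Nuc1 cells, which is a log2 ratio of −3.28 (−3.55 to −3.01), and in cluster 0 it was 301.7 and 50.8 CPM (−2.57, −2.75 to −2.40). In the astrocyte-like cells, where the WT level was 65.1 CPM, the Nuc1 level was 29.5 CPM and the log2 ratio −1.14 (−1.42 to −0.86). In cluster 7 the WT cells had 40 UMIs and the 10 Nuc1 cells 0, which allows up to 28.1 CPM, so the WT level of 51.2 CPM was at least 1.82-fold higher than this limit of 3 counts, and the exact 95% interval of the log2 ratio ended at −0.50. Cluster 4 held the highest level of Fosb in both libraries, 437.6 CPM in WT and 182.7 CPM in Nuc1 cells.

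Among the Jun proteins, the partners of Fos in AP-1, Jun and Junb were lower in most clusters and Jund was not. Jun (ENSRNOG00000026293) had 351.4 CPM in WT against 259.4 in Nuc1 cells, which is a log2 ratio of −0.44 (−0.48 to −0.40). Jun was lower beyond counting error in 8 of the 10 clusters, with the lowest ratio in cluster 7 (643.5 and 327.7 CPM, −0.97) and a ratio of −0.84 (−0.94 to −0.74) in the astrocyte-like cells. In the ciliated-cell-like cells the order turned, with 352.8 CPM from 148 UMIs in 15 WT cells and 429.5 CPM from 977 UMIs in 106 Nuc1 cells, giving a log2 ratio of 0.28 (0.03 to 0.54). In the macrophage-like cells the interval of Jun included 0 and its sign changed with the scaling, from 0.18 to −0.21. Jun was highest in cluster 7 among the WT cells and in the ciliated-cell-like cluster among the Nuc1 cells, where it did not differ from cluster 7 beyond counting error.

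Junb (ENSRNOG00000042838), which can restrain the activity of Jun, had 863.4 CPM in WT against 505.7 in Nuc1 cells (log2 ratio −0.77, −0.80 to −0.74). It was lower beyond counting error in clusters 0 to 5, from 1.34-fold in the astrocyte-like cells (526.6 and 393.0 CPM) to 2.03-fold in cluster 2 (993.3 and 489.7 CPM). The log2 ratio of Junb in the astrocyte-like cells, −0.42, was −0.25 with TMM scaling. It was −0.89 in the astrocyte-like cluster of a new clustering of cells with at most 10% mitochondrial UMIs. In clusters 6, 7, 8 and 9 its log2 ratios were 0.11, 0.05, −0.07 and 0.41, each with an interval that included 0, and the signs in clusters 7 and 8 changed with the scaling. Its level was highest in clusters 0 (1215 CPM) and 4 (1209.5) in the WT library and in clusters 8 (713.1) and 4 (682.3) in the Nuc1 library, and neither pair differed beyond counting error.

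Jund (ENSRNOG00000019568) is the Jun protein known for steady expression in resting cells. Its level was 86.0 CPM in WT against 98.8 in Nuc1 cells, which is a log2 ratio of 0.20 (0.13 to 0.27), the only ratio above 0 among the 9 genes. With clusters 0 to 5 weighted equally, its mean log2 ratio was 0.02. In the astrocyte-like cells Jund had 79.5 CPM in WT and 124.4 CPM in Nuc1 cells (0.65, 0.44 to 0.86), and in the ciliated-cell-like cells 66.8 and 126.2 CPM (0.92, 0.36 to 1.53), so that it was higher in both. When cells with at most 10% mitochondrial UMIs were clustered anew, the log2 ratio of Jund was 0.34 (−0.03 to 0.73) in their astrocyte-like cluster. In all of these cells it was 0.06 (−0.03 to 0.15), and both intervals included 0. The cells of cluster 3 with at most 10%, 15 WT and 148 Nuc1, had 68.5 and 120.5 CPM of Jund. In cluster 1 Jund was lower, with 95.0 CPM in WT and 83.1 CPM in Nuc1 cells (−0.19, −0.36 to −0.03), and in the other 7 clusters its interval included 0. Its WT levels ran from 34.5 CPM in cluster 7 to 114.8 in cluster 4, and no 2 neighbours in that order differed beyond counting error except clusters 6 and 7.

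Egr1 (ENSRNOG00000019422) encodes a zinc finger transcription factor that binds the GC-rich EGR site. Its level was 1400.4 CPM in WT against 628.2 in Nuc1 cells, which is a log2 ratio of −1.16 (−1.18 to −1.13). Egr1 was lower beyond counting error in 9 of 10 clusters, and in clusters 0, 1, 2, 4 and 5 its log2 ratios lay close together, between −1.11 and −0.90. The astrocyte-like cells stood apart from these 5 clusters, with 663.6 CPM in WT and 226.9 CPM in Nuc1 cells. Their log2 ratio was −1.55 (−1.64 to −1.46), whose interval did not overlap those of the 5 clusters just named. That interval did overlap the one of cluster 7, where the log2 ratio was −1.39 (−1.76 to −1.04). In the Nuc1 library the level of Egr1 was lowest in these astrocyte-like cells, whereas in the WT library it was lowest in the macrophage-like cells (284.6 CPM). In the macrophage-like cells the log2 ratio was 0.23 (−0.46 to 0.88), and its sign changed with the scaling.

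Atf3 (ENSRNOG00000003745), a stress-induced transcription factor that represses many of its targets, had 131.3 CPM in WT against 43.2 in Nuc1 cells (log2 ratio −1.61, −1.69 to −1.52). It was lower in all 10 clusters, with intervals below 0 in 9. The log2 ratio was −2.21 (−2.58 to −1.82) in cluster 4, from 92 and 163 UMIs, and −1.31 (−1.54 to −1.08) in cluster 1, and in cluster 7, where the Nuc1 cells had 5 UMIs, it was −2.86 (−4.49 to −1.62). In the astrocyte-like cells Atf3 stood at 193.5 CPM in WT and 70.0 CPM in Nuc1 cells (−1.47, −1.64 to −1.30). Its WT level was highest in cluster 7 (339.0 CPM), and from the ciliated-cell-like cells (195.5) to the astrocyte-like cells (193.5) the order did not pass counting error.

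Btg2 (ENSRNOG00000003300), an antiproliferative gene that is a target of p53 and promotes the removal of poly(A) tails from mRNA, had 797.6 CPM in WT against 339.1 in Nuc1 cells (log2 ratio −1.23, −1.27 to −1.20). It was lower in all 10 clusters, and beyond counting error in 7. As with Fosb, the lowest ratios of Btg2 were in cluster 2 (896.4 and 230.9 CPM, −1.96, −2.06 to −1.85) and cluster 0 (1093 and 325.0 CPM, −1.75, −1.82 to −1.68). In cluster 1 it was −0.78 (−0.85 to −0.71) and in the astrocyte-like cells −1.23 (−1.32 to −1.13), from 570.1 and 243.4 CPM. The intervals in clusters 6, 7 and 9 included 0. Btg2 was highest in clusters 0 and 4 (1053 CPM) in the WT library, which did not differ beyond counting error, and in cluster 8 (606.3) in the Nuc1 library.

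**Figure D2:**
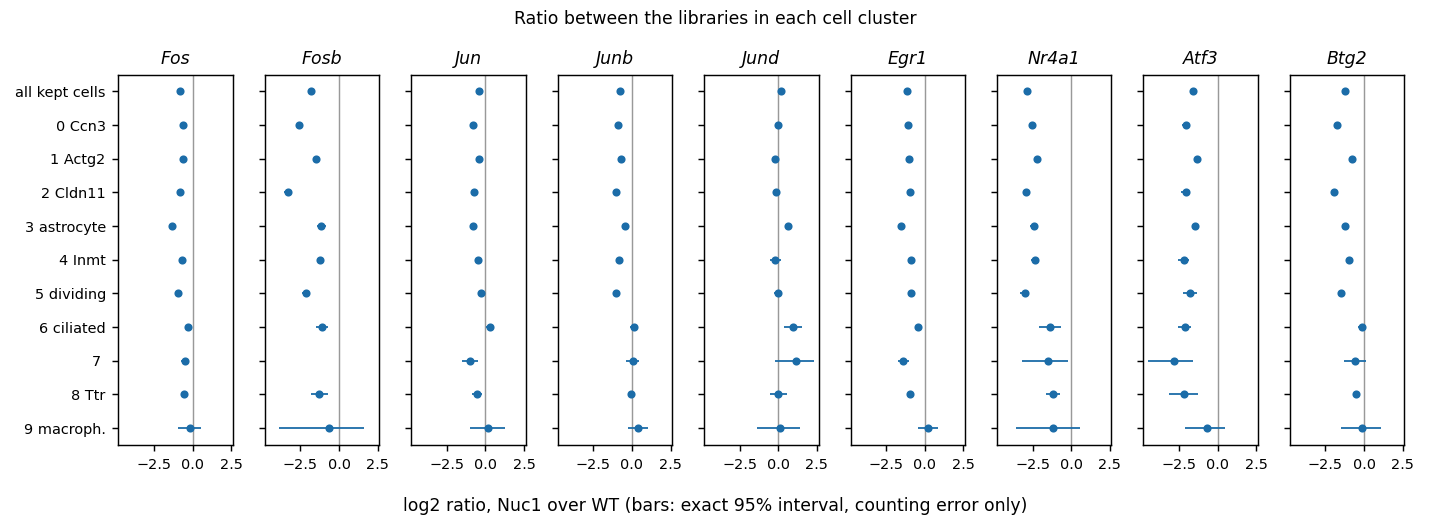
Log2 ratio of Nuc1 over WT for each gene in all kept cells and in the 10 clusters, with exact 95% intervals for counting error; Fosb in cluster 7 has no point because the Nuc1 count was 0. The ratios of all genes but Jund lie below 0 in clusters 0 to 5, and the wide intervals are those of clusters with few cells.

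Over the 90 pairs of a gene and a cluster, 79 were lower in the Nuc1 library, 37 of them at least 2-fold, and 67 had an interval below 0, 3 an interval above 0 and 20 an interval that included 0. Without Jund, 74 of 80 pairs were lower, and in clusters 0 to 5 all 48 pairs were lower with an interval below 0. The 6 pairs without Jund that were not lower were Jun in clusters 6 and 9, Junb in clusters 6, 7 and 9, and Egr1 in cluster 9. The lower values thus held in each cluster with at least 30 cells in each library for 8 of the 9 genes, and not for Jund. Clusters 0 to 5 hold most of the cells over which the genes were chosen for lower values, so these counts are a description.

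Each count of genes was set beside the same share of all genes with at least 100 UMIs in that cluster. These counts too follow in part from the choice of the genes. In cluster 0, 9 of 9 genes were lower (52.7% of all genes) and 5 at least 2-fold lower (4.13%). In cluster 1 these were 9 (52.7%) and 4 (3.79%), in cluster 2, 9 (54%) and 5 (3.54%), and in the astrocyte-like cells, 8 (61.9%) and 6 (3.85%). In cluster 4, 9 of 9 were lower (44.1%) and 3 at least 2-fold lower (2.23%), and in the dividing cells 9 (50.9%) and 4 (2.49%). Of the clusters with fewer cells, the ciliated-cell-like cells had 5 of 8 genes lower (53.3%) and 2 at least 2-fold lower (2.05%), cluster 7 had 6 of 7 (52.6%) and 3 (6.59%), and cluster 8 had 7 of 8 (58.4%) and 2 (4.81%). In the macrophage-like cells none of the 9 genes reached 100 UMIs, and the shares there were 45.1% and 19.1% of 408 genes.

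The astrocyte-like cells were the cluster in which all genes together moved most among clusters 0 to 5, with a median log2 ratio of −0.11, and relative to that median Nr4a1 had a log2 ratio of −2.27, Fos −1.21, Egr1 −1.44, Junb −0.31 and Jund 0.76. The median over the 9 genes in each cluster lay between −0.78 in cluster 1 and −1.23 in the astrocyte-like cells for clusters 0 to 5, and was −0.24 in the ciliated-cell-like cells. With clusters 0 to 5 weighted equally, the mean log2 ratios were −0.85 for Fos, −1.98 for Fosb, −0.60 for Jun, −0.81 for Junb, 0.02 for Jund, −1.08 for Egr1, −1.82 for Atf3 and −1.37 for Btg2. The libraries held different shares of each cluster, such as 5.41% of WT and 19.5% of Nuc1 cells in cluster 3, and this mean does not depend on those shares.

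Other measures differed between the libraries in the same cells. The summed level of 16 fibroblast markers was 12950.2 to 17399 CPM in the WT cells and 7805 to 12414 CPM in the Nuc1 cells of clusters 0, 1, 2, 4 and 5, with 11 or 12 of the 16 lower and none at 0 in these clusters apart from 1 in the WT cells of cluster 0. In the macrophage-like cells the median was 7686 UMIs in WT and 1951 in Nuc1 cells, and mitochondrial genes took a median of 8.09% and 0.294% of the UMIs. Over all kept cells the mitochondrial medians were 9.27% and 9.32%. In the astrocyte-like cells the summed level of 16 markers of dividing cells was 637.0 CPM in WT and 80.5 CPM in Nuc1 cells, with all 16 lower. The part of these measures in the differences of the immediate-early genes was not tested.

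The 9 genes were also summed in subsets of the cells, as a description, since the genes were chosen for lower values over all of them. In cells with at most 10% mitochondrial UMIs the median log2 ratio of the 9 genes was −1.07 and in those above 10% it was −1.32, with 8 of 9 genes lower in each. In cells above the median UMI count of their library it was −1.22 and in the others −1.004, again with 8 genes lower. The share of all genes lower was not taken in these subsets, so nothing was read from these counts. Of the Nuc1 cells, 411 had a UMI of a Y-linked gene, against 1 WT cell. The 1369 Nuc1 cells without such a UMI are not thereby cells of a female, so the sex of the animals cannot be told apart from genotype.

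The share of cells with a UMI of a gene was compared after each cell was thinned to 5000 UMIs, which left out 28 WT and 40 Nuc1 cells with fewer. Nr4a1 was found in 72.3% of WT cells (70.2 to 74.3) and 21.2% of Nuc1 cells (19.3 to 23.2), and without thinning in 87.7% and 41.8%. Fosb was found in 55.0% and 20.6% of the thinned cells (74.2% and 35.3% without thinning), Atf3 in 33.2% and 15.9% (53.8% and 33.4%), and Btg2 in 84.1% and 59.1% (93.6% and 81.7%). The shares of Fos (93.5% and 85.9%), Junb (90.3% and 81.1%), Egr1 (95.2% and 82.1%) and Jun (67.7% and 59.7%) differed less, and most cells of both libraries had a UMI of these 4 genes. These differences shrank with depth, and without thinning the shares were 96.8% and 95.3% for Fos, 96.5% and 95.5% for Junb, 98.1% and 90.9% for Egr1, and 87.0% and 84.8% for Jun. Jund was found in 33.2% of WT and 38.0% of Nuc1 cells, and without thinning in 64.8% and 72.9%. No cell type here is known to lack these genes, so free RNA in the droplets has no reference level in these shares.

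Within clusters the share of cells with Nr4a1 followed its level. It was 79.6% (76.3 to 82.6) of WT and 29.2% (24.6 to 34.1) of Nuc1 cells in cluster 0, 73.3% and 14.3% in the dividing cells, and 33.3% (24.4 to 43.2) and 11.1% (7.98 to 14.9) in the astrocyte-like cells. Among astrocyte-like cells, Egr1 was found in 82.9% of the WT and 50.9% of the Nuc1 cells, and it was found in 99.1% and 92.0% of the cells of cluster 0. For Jund the shares among astrocyte-like cells were 33.3% in WT and 46.2% in Nuc1. In cells that had at least 1 UMI of Nr4a1 after thinning, the mean was 2.996 UMIs in WT and 1.43 in Nuc1 cells, and for Btg2 it was 5.12 and 3.05. A lower mean over all cells lowers both this mean and the share of cells with a UMI, so they are not separate measures.

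Counted together without Jund, a median of 6 of the 8 genes was found in a thinned WT cell and of 4 in a thinned Nuc1 cell. All 8 were found in 247 of 1933 WT cells (12.8%) and in 12 of 1740 Nuc1 cells (0.690%), and 3 or fewer were found in 7.81% and 29.5%. The summed UMIs of the 8 genes had a median of 29 in WT cells, with quartiles of 18 and 40, and of 13 in Nuc1 cells, with quartiles of 7 and 20. In the astrocyte-like cells the medians were 17 and 7, and in cluster 0 they were 35 and 15. The distribution of Nuc1 cells lay lower over most of its length in each of clusters 0 to 5. In cluster 0, 10% of the WT cells had at most 15 UMIs, which was the median of the Nuc1 cells.

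**Figure D3:**
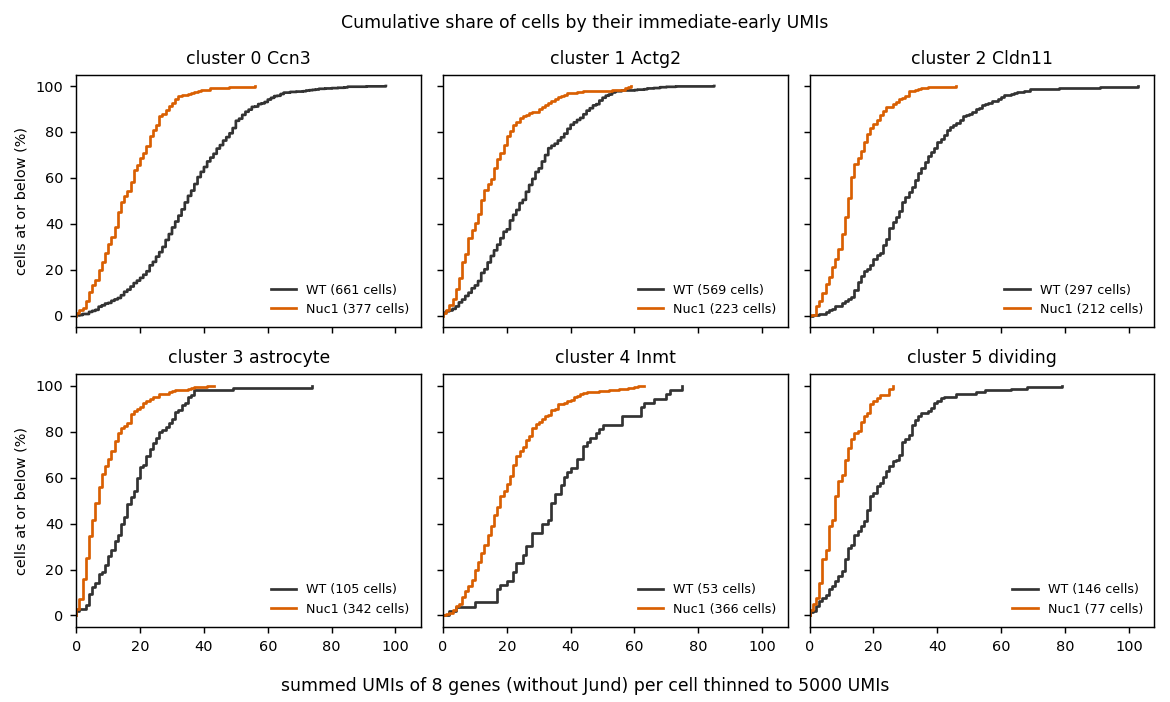
Percent of cells (vertical axis) with at most the given number of summed UMIs of 8 immediate-early genes, Jund left out, per cell thinned to 5000 UMIs (horizontal axis), in clusters 0 to 5 for WT (black) and Nuc1 (orange). The Nuc1 curves lie to the left of the WT curves over most of their length, with medians of 15 and 35 UMIs in cluster 0 and of 7 and 17 in the astrocyte-like cells.

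No single cell carried these sums. The cell with the most UMIs of Nr4a1 held 42 UMIs, 0.312% of all its UMIs in the WT library, and 16 UMIs or 0.825% in the Nuc1 library. The largest such share among the 9 genes was 1.76%, for Fosb in the Nuc1 library.

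To ask whether the genes moved together within cells, Pearson correlations of log(1 + thinned UMIs) were taken between each pair of genes over the cells of 1 cluster in 1 library, for the 15 sets with at least 30 cells. The cells of a set share library, cluster and depth, and the correlations are a description over 30 to 661 cells each. The median over the 36 pairs lay between 0.07 and 0.33, with a median of 0.19 over the 15 sets. Other genes were taken if detected at least as often as the least detected immediate-early gene of the set, in 6.67% to 33.1% of its cells. Their median lay near 0 in 14 of the sets and at −0.04 in the set of 30 cells. They were not matched in counts to genes such as Fos, and lower counts lower a correlation, so they are not a like reference. Of the 36 pairs, 14 were above 0 in all 15 sets.

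The closest pair was Fos and Egr1, with a mean correlation of 0.48 over the 15 sets and a range of 0.31 to 0.72. Fos and Btg2 followed at 0.41 (0.26 to 0.61), then Fos and Junb at 0.39, Junb and Egr1 at 0.37, and Egr1 and Btg2 at 0.35. Each of the 6 pairs among Fos, Egr1, Btg2 and Junb was above 0 in every set. These 4 genes were also found in the most thinned WT cells, and since lower counts lower a correlation, the order of the genes cannot be told apart from their counts. Against the summed UMIs of the other 8 genes, Fos had a mean correlation of 0.58, Egr1 0.52, Btg2 0.48 and Junb 0.46.

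For Nr4a1, found in fewer cells, this value was 0.29, and Fosb (0.30), Jun (0.28) and Atf3 (0.23) stood near it. Its highest mean correlation in the WT library was with Btg2, 0.35 over clusters 0 to 5, where the Nuc1 value was 0.16. Jund had the lowest value, 0.15, and none of its 8 pairs was above 0 in every set. Weak values such as these in sparse counts are given without a reading.

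The 15 sets were clusters 0 to 5 of both libraries, cluster 7 of WT and clusters 6 and 8 of Nuc1, so the libraries were compared over clusters 0 to 5 alone. There the median correlation over the 36 pairs had a median of 0.23 over the WT sets and 0.12 over the Nuc1 sets, and it was lower in the Nuc1 library in 6 of 6 clusters. The mean correlation was lower in the Nuc1 library in all 28 pairs without Jund. The pairs of Fos with Egr1 (0.48 in WT and 0.42 in Nuc1), Btg2 (0.39 and 0.38) and Junb (0.38 and 0.36) had close values, and the pair of Jun and Atf3 had 0.25 and 0.09. Atf3 had 33.2% and 15.9% of thinned cells with a UMI. The part of depth of counts in this difference was not tested.

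**Figure D4:**
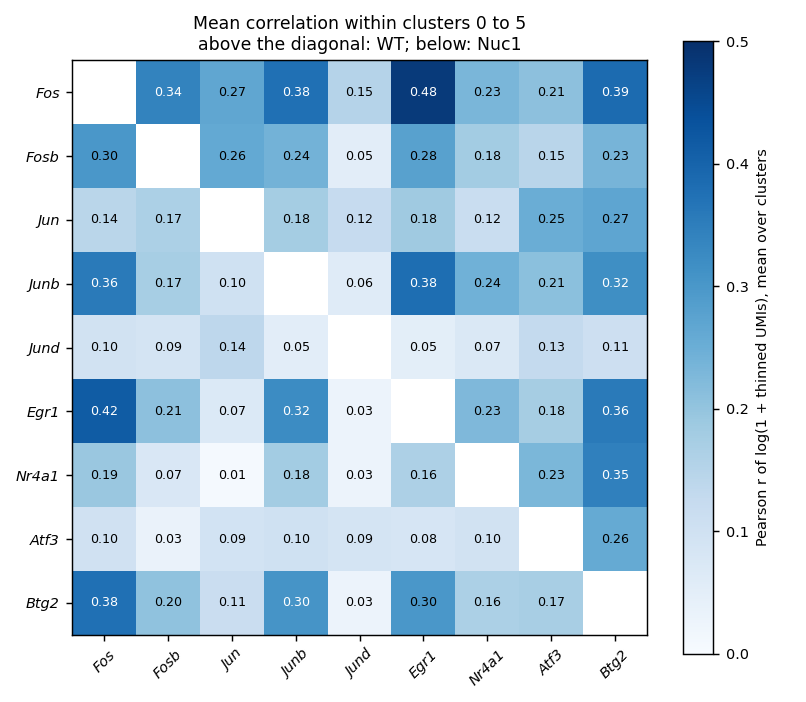
Mean Pearson correlation of log(1 + thinned UMIs) between each pair of genes over clusters 0 to 5 of 1 library (color scale 0 to 0.5), with WT above the diagonal and Nuc1 below it. The pair of Fos and Egr1 has the highest value on both sides of the diagonal, 0.48 in WT and 0.42 in Nuc1. The highest value of a pair with Jund is 0.15, with Fos in WT.

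Within sets, the median spread of UMIs from cell to cell was above what counting alone gives for the genes other than Jund, which lay close to it. The variance over the mean of the thinned UMIs had a median over the 15 sets of 3.67 for Btg2, 3.49 for Fos, 2.47 for Egr1, 2.31 for Fosb, 2.29 for Jun, 2.27 for Junb, 2.13 for Atf3, 1.52 for Nr4a1 and 1.11 for Jund. The median over all genes with a mean of at least 0.1 UMIs was 1.05, the value near 1 that counting alone gives. This ratio rises with the mean, which differed between the genes, so the values were not compared between genes or with the median over all genes.

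The 10 genes whose UMIs correlated best with the summed UMIs of the immediate-early genes within the 15 sets were, of 4681 genes compared, Zfp36 (mean correlation 0.43), Dusp1 (0.34), Zfp36l2 (0.27), Cebpd (0.27), Zfp36l1 (0.27), Gadd45g (0.24), Ier3 (0.24), Hes1 (0.24), H3f3b (0.21) and Ccn1 (0.21). The genes compared were those found in at least 10% of thinned cells and were not matched in counts. Their median was 0.004, and no other gene was over 0.2. Of these 10 genes, 8 belong to a list of 57 symbols of other primary response genes. The exceptions were Cebpd, which encodes a C/EBP transcription factor, and H3f3b, which encodes histone H3.3. How many of the 4681 genes belong to that list was not counted, so nothing was read from the 8 of 10. Zfp36, whose product destabilizes mRNAs with AU-rich elements, had 563.4 CPM in WT against 175.6 in Nuc1 cells (log2 ratio −1.68, −1.72 to −1.64) and was lower in clusters 0 to 5. Dusp1, a phosphatase of MAP kinases, had 616.8 and 299.6 CPM (−1.04, −1.08 to −1.01) and was also lower in all 6.

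Likeness within cells and difference between libraries did not always go together. Ier3, which encodes a regulator of cell survival, had 415.1 CPM in WT against 410.8 in Nuc1 cells (log2 ratio −0.01, −0.05 to 0.02), and was higher in 5 of clusters 0 to 5. Zfp36l1, a relative of Zfp36, had 561.8 and 710.9 CPM (0.34, 0.31 to 0.37) and was lower in 4 of these clusters. Hes1, a repressor that is a target of Notch, had 422.5 and 73.8 CPM (−2.52, −2.58 to −2.46) and was lower in all 6.

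The list of other primary response genes held 57 symbols, among them Cyr61 and Ctgf, older symbols of the listed Ccn1 and Ccn2. Of these symbols 54 were measured and 48 had at least 100 UMIs. In all kept cells 39 of the 48 were lower in the Nuc1 library (50.6% of all genes) and 9 higher, 23 at least 2-fold lower (4.56% of all genes), with a median log2 ratio of −0.88 beside −0.01 for all genes. This list was chosen with earlier results of these data known. The 3 lowest were Nr4a3 (20.7 and 2.40 CPM, −3.11), Nr4a2 (85.3 and 13.8 CPM, −2.63) and Hes1, so that the other members of the Nr4a family of orphan receptors stood beside Nr4a1. The 3 highest were Dusp6, a phosphatase of ERK (65.0 and 109.5 CPM, 0.75), Arc, a regulator of synapses (2.78 and 4.59 CPM, 0.72), and Fosl1, a relative of Fos (4.76 and 6.21 CPM, 0.38). Within clusters, with the share of all genes lower in brackets, 40 of 43 of these genes were lower in cluster 0 (52.7%), 37 of 44 in cluster 1 (52.7%), 35 of 39 in cluster 2 (54%), 36 of 39 in the astrocyte-like cells (61.9%), 32 of 37 in cluster 4 (44.1%) and 29 of 36 in the dividing cells (50.9%). Dusp6 was higher in 5 of these clusters and lower in the astrocyte-like cells (−0.63), and Fosl1 was higher in 3 of 6.

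The listed regulators of the primary response, such as kinases, growth factor receptors and the factors that bind its promoters, lay near all genes in all kept cells. Of 31 listed, 28 had at least 100 UMIs, 16 lower (50.6% of all genes) and 12 higher, with a median log2 ratio of −0.08. Clusters differed, with the share of all genes in brackets. In cluster 0, 16 of 26 were lower (52.7%), in cluster 1, 13 of 24 (52.7%), and in cluster 2, 12 of 18 (54%, median −0.19). In the astrocyte-like cells 15 of 20 were lower (61.9%), in cluster 4, 6 of 19 (44.1%, median 0.24), and in the dividing cells 11 of 17 (50.9%). The lowest was Jdp2, a repressor that dimerizes with Jun proteins (13.4 and 3.06 CPM, −2.13, −2.45 to −1.82), then the receptor gene Egfr (10.6 and 5.14 CPM, −1.05, but a mean of −0.38 over clusters 0 to 5) and Srf, which encodes serum response factor, the protein that binds the CArG box (47.5 and 29.0 CPM, −0.71, −0.83 to −0.60). Srf and Jdp2 were lower in all of clusters 0 to 5. The highest were the receptor genes Pdgfra (78.5 and 152.6 CPM, 0.96) and Pdgfrb (65.5 and 93.8 CPM, 0.52) and the kinase gene Rps6ka1 (6.57 and 8.52 CPM, 0.38). Over clusters 0 to 5 the mean log2 ratio was 0.84 for Pdgfra and 0.83 for Rps6ka1, each higher in all 6, and 0.13 for Pdgfrb, which was lower in 2 of 6.

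Heat shock genes, another rapid response, were split in all kept cells, with 7 of 14 lower and 7 higher and a median log2 ratio of −0.004. Within clusters 9 of 13 were lower in cluster 0, 6 of 13 in cluster 1, 9 of 13 in cluster 2, 9 of 14 in the astrocyte-like cells, 6 of 13 in cluster 4 and 8 of 13 in the dividing cells, beside the shares of all genes given above. Dnajb4 (63.4 and 32.7 CPM, −0.96) and Dnajb1 (85.2 and 52.4 CPM, −0.70), both cochaperones of HSP70, were lower in clusters 0 to 5, and Hspa5, the chaperone of the endoplasmic reticulum, had a log2 ratio of −0.20. Hspb1 (2.32), Hspa4l (2.01) and Hspa1b (0.52) had the highest values. Hspb1 is also a marker of the astrocyte-like cells, which were more numerous in the Nuc1 library, and within these cells its log2 ratio was 1.02. It was lower in 4 of clusters 0 to 5 and higher in 2, and its mean log2 ratio over clusters 0 to 5 was −0.25. That of Hspa1b was 0.38, and that of Hspa4l was 0.75 over the 4 of these clusters in which it had a ratio.

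**Figure D5:**
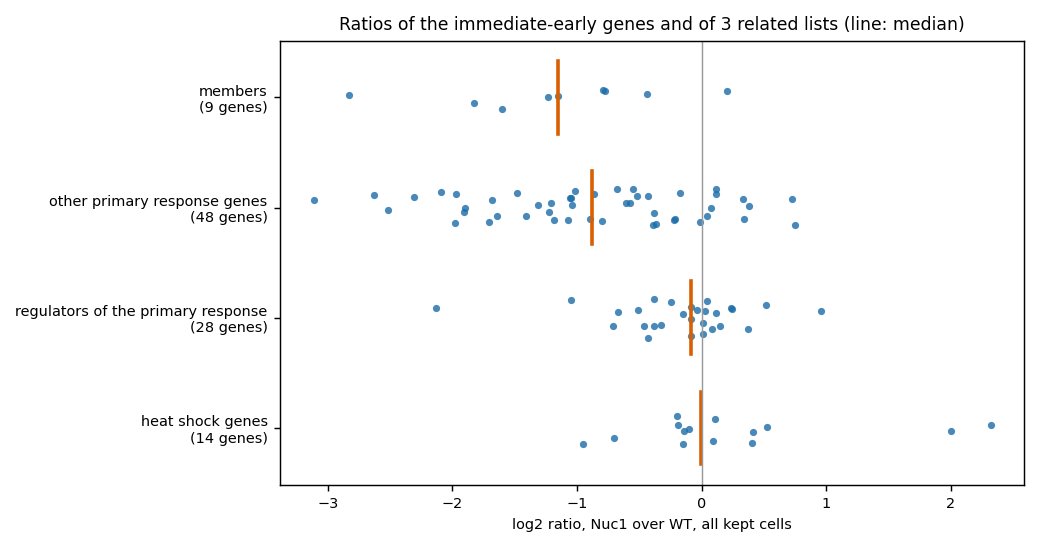
Log2 ratio of Nuc1 over WT in all kept cells (horizontal axis) for each gene of 4 lists with at least 100 UMIs over both libraries, with the vertical bar at the median. The median is −1.16 for the 9 immediate-early genes, −0.88 for 48 other primary response genes, −0.08 for 28 regulators and −0.004 for 14 heat shock genes.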

How the data were processed

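The authors used Cell Ranger 3.1.0 to demultiplex the reads, STAR 2.7 to align them and Seurat 3.1.0 and 3.1.1 downstream, per the labels and the study's methods. They deposited raw UMI counts for each gene in each barcode, not normalized. The genome build is not given in the sources used here, and 99 symbols listed more than once were not used. The genes and all lists were chosen with earlier results of these data known.

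Cells were kept if they had 500 genes or more and no more than 20% of UMIs from 13 mitochondrial genes. Scrublet (scanpy 1.11.5, expected rate 2%) called 7 WT cells (0.356%) and 13 Nuc1 cells (0.725%) doublets, which were left out. These are fewer than the expected rate, so doublets can remain. The libraries were integrated by anchors and clustered in Seurat 5.3.0 (R 4.3.3) with 2000 variable genes, from which the genes described, the other primary response genes and the heat shock genes were withheld, 30 principal components and a resolution of 0.5. A cluster was named when at least 3 markers of a cell type were among its 10 leading genes, which were ranked by fold over the other clusters' mean CPM after adding 20 CPM. No name is reported for cluster 7, and cluster 1, which met the rule for fibroblasts, was left without a name because Actg2 and Penk entered that list from earlier results of these data.

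The UMIs of each cluster were summed in each library and divided by the summed UMIs of those cells (CPM). Intervals are exact Poisson for a level, exact conditional for a ratio and Clopper-Pearson for a share, and a sum of 0 allows 3 counts. Levels were not compared between genes. For ratios over all genes, 0.5 UMIs scaled by library size were added. Shares and correlations used cells thinned to 5000 UMIs. Motifs were searched in RefSeq windows of GRCr8.

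Genes named beside the 9 are the 3 lowest and 3 highest ratios of each list (other primary response genes, regulators of that response, heat shock genes, Y chromosome genes and erythroid genes) among genes with at least 100 UMIs, the 10 genes most like the summed immediate-early UMIs within cells, and markers that name a cluster. Alternatives were other filters, thinning, scaling by TMM (edgeR 4.0.16) or to a median of 0, other clusterings, a marker rule in each cell, and leaving out the cell with most UMIs of a gene. The steps were tested on simulated data.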

Additional observations from a re-analysis of the deposited data

Results flagged for a closer look

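The log2 ratio of Nuc1 over WT of 2 genes went the opposite way in some clusters, beyond counting error. Jun had a log2 ratio of 0.28 (0.03 to 0.54) in the ciliated-cell-like cells, from 15 WT and 106 Nuc1 cells, while its ratios in clusters 0 to 5 lay between −0.84 and −0.32. Jund had a log2 ratio of 0.65 (0.44 to 0.86) in the astrocyte-like cells and of 0.92 (0.36 to 1.53) in the ciliated-cell-like cells, and of −0.19 (−0.36 to −0.03) in cluster 1. In a new clustering of cells with at most 10% mitochondrial UMIs, the astrocyte-like cluster held 29 WT cells. The log2 ratio of Jund there was 0.34 (−0.03 to 0.73), which included 0. With 1 library per genotype, the differences between clusters were not tested.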

How the results depend on the processing

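No paired analysis was possible because only 1 library per genotype exists here, and for the same reason no replicate could be left out. Under the alternatives run, the share of pairs of a gene and a cluster that were lower in the Nuc1 library, 87.8% as reported, lay between 62.5% and 95.2%. The lowest value came with a marker rule in each cell, under which 20 of 32 pairs were lower, and its groups included macrophage cells numbering 10 in WT and 1 in Nuc1. Under that rule the astrocyte group (125 WT and 332 Nuc1 cells) had 8 of 9 genes lower, and the fibroblast group (1578 and 793) had 9 of 9. The share of all genes lower was not taken in these groups, so nothing was read from these counts. The median log2 ratio with clusters weighted equally, −1.08 as reported, lay between −1.13 and −0.95, and the median correlation within cells, 0.19, between 0.17 and 0.24. In all kept cells no ratio of the 9 genes changed sign under any alternative, and 61 of 72 values stayed within the counting interval. In the astrocyte-like cells none changed sign and 81 of 108 stayed within it. Filtering to at most 10% mitochondrial UMIs was followed by a new clustering, whose astrocyte-like cluster held 29 WT and 184 Nuc1 cells. There the interval of Jund included 0 (0.34, −0.03 to 0.73), as it did in all cells kept by that filter (0.06, −0.03 to 0.15). Of cluster 3 itself, 15 WT and 148 Nuc1 cells had at most 10% mitochondrial UMIs, with Jund at 68.5 and 120.5 CPM. Scaling turned the sign of Jun, Jund and Egr1 in cluster 9, of Junb in clusters 7 and 8 and of Jund in cluster 0, in each case with an interval that included 0. Of the 18 differences in the share of cells with a UMI, at 10000 UMIs or without thinning, 16 moved beyond the counting interval and none changed sign, and that of Junb shrank from −9.23 percentage points to −2.35 and −0.98. Few cells limit what clusters 6 to 9 can show.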
